A study of Rattus norvegicus with 50 samples.

Results

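The genes described here are 40 genes of the skeletal muscle fibre, taken as a list by symbol and followed across the mammary glands of 50 female Sprague-Dawley rats. The list holds 14 genes of fast fibres, 8 genes of slow fibres and 18 genes that both kinds of fibre use. A gene was measured where the array had a probeset named for it alone, and the probeset with the highest mean was used where a gene had more than 1. By this rule 33 of the 40 genes were measured, among 18166 genes on the array: 10 fast, 7 slow and 16 shared. The fast myosin heavy chains Myh1, Myh2 and Myh4 were named only on probesets that carry several symbols, and Atp2a1, Myl2, Tcap and Cacna1s had no probeset named for them here. Mylpf was measured under its newer symbol Myl11.

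The plasticiser diethyl phthalate (DEP), the preservative methyl paraben (MPB), the antimicrobial agent triclosan (TCS), a mixture of these chemicals (MIX) or the vehicle olive oil (OIL) was given from postnatal day 1 to 180, through the milk of gavaged dams until weaning on day 28 and by gavage afterwards. Each treatment was given to 5 parous rats (par), mated on day 97 and killed after their pups were weaned, and to 5 age-matched nulliparous rats (null), which makes 10 groups. All 50 rats were killed on day 181, and RNA came from caudal mammary glands of the left and right side of 1 rat per array. Each value is a signal on the log2 scale from an Affymetrix whole-transcript array. RNA was extracted with a Promega kit in 26 rats and with a Zymo kit in 24 rats, and the labelled batch and the kit cannot be told apart. The DEP groups held 1 Promega and 4 Zymo rats each, and the other 8 groups held 3 Promega and 2 Zymo rats each. Whether muscle under the gland was trimmed is not given in the sources used here. In a sample of whole tissue, fewer muscle fibres and less RNA per fibre cannot be told apart.

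A muscle fibre contracts when calcium leaves the sarcoplasmic reticulum through the ryanodine receptor and binds troponin C, which lets myosin heads pull on actin in the sarcomere. Fast and slow fibres carry different genes for the same parts: troponin C, I and T, the myosin chains and the Z-disc proteins each have a fast and a slow form. The mammary gland has contractile cells of its own, the myoepithelial cells and the smooth muscle of vessels, which do not build sarcomeres. The caudal glands of the rat lie under the skin, next to the muscle of the body wall and the skin muscle.

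Promoters of members are shown as a description, and no link between them and the levels described below was tested. They are windows from 250 bases before to 50 bases after the transcription start, from RefSeq (GRCr8), written 5′ to 3′ on the gene's strand. Capitals mark a match to the binding motif of MEF2, to the CArG box of serum response factor or to the MCAT motif (CATTCC), all of which are known from promoters of muscle genes. Acta1 and Ckm were high in the 4 rats of highest member signal, and Smpx, Klhl41 and Ampd1 carry a MEF2 match. Tnni1 is a slow gene whose deposited signal lay between 5.65 and 7.14.
Acta1, chr19:68784145-68784444, minus strand: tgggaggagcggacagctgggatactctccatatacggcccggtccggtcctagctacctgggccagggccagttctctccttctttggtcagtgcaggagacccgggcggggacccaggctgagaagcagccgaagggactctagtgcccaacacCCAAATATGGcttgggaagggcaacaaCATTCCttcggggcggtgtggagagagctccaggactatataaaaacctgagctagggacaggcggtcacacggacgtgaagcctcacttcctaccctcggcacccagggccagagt
Ckm, chr1:88189211-88189510, plus strand: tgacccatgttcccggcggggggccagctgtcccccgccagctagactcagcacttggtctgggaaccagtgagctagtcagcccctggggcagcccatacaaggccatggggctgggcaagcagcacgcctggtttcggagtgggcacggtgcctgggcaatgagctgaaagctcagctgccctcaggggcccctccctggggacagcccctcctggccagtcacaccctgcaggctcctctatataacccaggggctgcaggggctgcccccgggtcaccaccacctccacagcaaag
Smpx, chrX:41107088-41107387, minus strand: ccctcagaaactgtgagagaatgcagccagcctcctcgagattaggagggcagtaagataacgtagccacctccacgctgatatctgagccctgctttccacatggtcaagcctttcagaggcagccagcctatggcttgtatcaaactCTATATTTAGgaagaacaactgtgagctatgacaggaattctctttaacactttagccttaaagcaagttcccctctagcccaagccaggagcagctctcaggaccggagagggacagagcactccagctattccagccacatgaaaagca
Klhl41, chr3:74841868-74842167, plus strand: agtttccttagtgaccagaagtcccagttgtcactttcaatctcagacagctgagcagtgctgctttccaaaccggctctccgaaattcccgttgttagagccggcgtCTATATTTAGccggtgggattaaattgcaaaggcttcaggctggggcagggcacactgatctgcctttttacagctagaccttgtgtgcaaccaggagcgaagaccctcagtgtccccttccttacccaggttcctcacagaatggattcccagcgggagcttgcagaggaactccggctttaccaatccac
Ampd1, chr2:193287082-193287381, plus strand: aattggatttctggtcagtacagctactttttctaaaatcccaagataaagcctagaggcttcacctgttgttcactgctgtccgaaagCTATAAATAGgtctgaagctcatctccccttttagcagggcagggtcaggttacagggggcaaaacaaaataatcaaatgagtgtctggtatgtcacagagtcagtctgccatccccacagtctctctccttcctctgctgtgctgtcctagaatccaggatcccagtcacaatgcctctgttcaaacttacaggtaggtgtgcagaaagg
Tnni1, chr13:49781279-49781578, plus strand: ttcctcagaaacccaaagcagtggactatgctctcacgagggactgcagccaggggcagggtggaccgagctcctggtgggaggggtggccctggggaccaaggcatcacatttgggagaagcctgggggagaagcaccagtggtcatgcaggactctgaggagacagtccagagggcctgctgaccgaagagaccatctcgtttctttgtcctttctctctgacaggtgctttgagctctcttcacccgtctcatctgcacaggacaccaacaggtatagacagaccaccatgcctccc
Windows were at hand for 34 of the 40 genes, 35 windows in all because Myl1 has 2 starts. Searched on both strands, a MEF2 motif lay in 10 of the 35 windows (28.6%) and in 3.29% of all 33469 windows of the genome. Those of Klhl41 and Smpx were the same 10 letters. A CArG box lay in 3 of the 35 windows (8.57%) against 1.64% of all windows, and the only printed window with it is that of Acta1. The MCAT motif lay in 8 windows (22.9%, against 14.2%), the E-box CANNTG in 32 windows (91.4%, against 72.1%) and the TATA motif TATAAA in 12 windows (34.3%, against 14.2%). In 3 windows (Ampd1, Myh1 and Myh4) the MEF2 match overlapped the TATA motif. A match in letters is a description of the window and was not tested as a binding site.

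The glands carried the markers of their tissue. The mean signal of 7 measured markers of mammary epithelium ran from 9.67 to 11.5 over the 50 rats, and that of 7 adipocyte markers from 10.4 to 11.9. All 50 arrays differed from each other (correlations of 0.833 to 0.997), with array medians between 6.70 and 6.91.

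Muscle fibre genes were not at the same level in all glands. In 4 rats, DEP_null_27, DEP_par_41, OIL_null_431 and TCS_par_243, the median member stood 3.71, 2.94, 2.20 and 1.95 above its own median rat on the log2 scale once the fitted kit difference was removed. The next rats were MPB_par_137 at 1.07, TCS_par_238 at 0.53 and OIL_null_427 at 0.39, and the remaining 43 rats lay between -0.37 and 0.15. The line between the 4 rats and the others was set at 1.5 after these values were seen. Without removal of the kit difference the same 4 rats stood at 3.88, 3.26, 2.62 and 2.16, and the next rat, MPB_par_137, at 0.83. The 4 rats belonged to 4 different groups, and their RNA was extracted with the Zymo kit in every case. Because these rats were picked by the members' own values, their difference from the other rats is described and not tested.

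**Figure D1:**
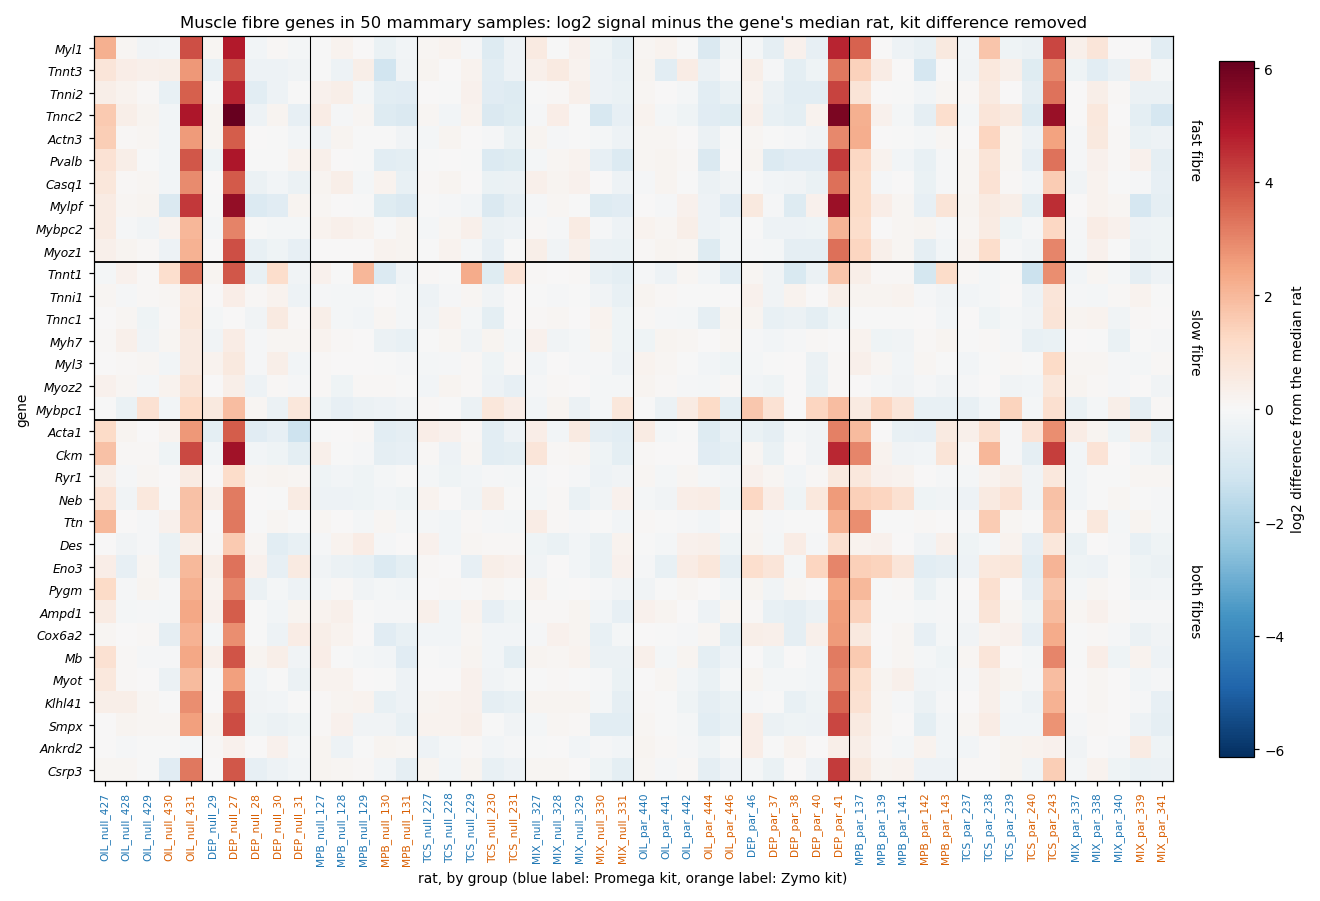
Log2 signal of 33 muscle fibre genes (rows, by fibre type) in 50 rats (columns, by group) minus each gene's median rat, with the fitted kit difference removed. The columns of DEP_null_27, DEP_par_41, OIL_null_431 and TCS_par_243 are red over the fast and most shared genes (Des, Ryr1 and Ankrd2 are pale), MPB_par_137 is paler, and slow genes other than Tnnt1 and Mybpc1 show little red.

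All 10 measured fast fibre genes were highest in these 4 rats, in the deposited values as well as after removal of the kit difference. Against the median of the other 20 Zymo rats, the median fast gene was higher by 4.68 in DEP_null_27, 4.13 in DEP_par_41, 3.63 in OIL_null_431 and 3.54 in TCS_par_243.
Where the value in every rat is given, the rats of a group follow in the order Promega, then Zymo.
Tnnc2 encodes the fast troponin C that binds calcium on the thin filament. Tnnc2 was 7.28, 6.03, 5.84, 6.94 and 12.09 in OIL_null, 5.87, 13.25, 6.82, 7.29 and 6.64 in DEP_null, 6.13, 5.62, 5.82, 6.34 and 6.26 in MPB_null, 5.81, 5.50, 5.91, 6.24 and 6.40 in TCS_null, and 5.62, 6.11, 5.67, 6.16 and 6.62 in MIX_null. Tnnc2 was 5.89, 5.58, 5.41, 6.43 and 6.36 in OIL_par, 6.00, 6.68, 6.50, 7.32 and 12.88 in DEP_par, 7.85, 5.93, 5.58, 6.59 and 8.15 in MPB_par, 5.59, 6.42, 6.23, 6.31 and 12.40 in TCS_par, and 5.72, 6.33, 5.70, 6.50 and 6.09 in MIX_par. The lowest of the 4 rats lay 3.94 above the highest of the other 46, MPB_par_143.
Tnni2 encodes the fast inhibitory troponin I. Tnni2 was 6.05, 5.95, 5.79, 6.63 and 10.74 in OIL_null, 5.67, 11.73, 6.45, 6.78 and 7.07 in DEP_null, 5.95, 6.06, 5.60, 6.44 and 6.41 in MPB_null, 5.73, 5.70, 5.99, 6.40 and 6.29 in TCS_null, and 5.66, 5.78, 6.03, 6.76 and 6.67 in MIX_null. Tnni2 was 5.82, 5.75, 5.60, 6.44 and 6.67 in OIL_par, 5.95, 6.71, 6.42, 6.46 and 11.22 in DEP_par, 6.50, 5.72, 5.67, 6.93 and 7.22 in MPB_par, 5.79, 6.24, 5.74, 6.54 and 10.42 in TCS_par, and 5.74, 6.08, 5.79, 6.74 and 6.73 in MIX_par. The 4 rats were again apart, with a gap of 3.20 to the next, and among the other rats the Zymo values (6.29 to 7.22) were mostly above the Promega values (5.60 to 6.50).
Of the remaining fast genes, Mylpf, the fast regulatory light chain of myosin, reached 12.68 in DEP_null_27 against at most 8.09 outside the 4 rats. Pvalb, the calcium buffer parvalbumin, reached 11.50 against at most 6.78. Myl1, Tnnt3 and Myoz1, the essential light chain, fast troponin T and a fast Z-disc protein, had gaps of 1.19, 1.93 and 1.56 between the lowest of the 4 rats and the highest of the others. Actn3, Casq1 and Mybpc2, the fast alpha-actinin, the calcium store calsequestrin and the fast myosin-binding protein C, had smaller gaps of 0.64, 0.86 and 0.36. The highest rat outside the 4 was MPB_par_137 in 6 of the 10 fast genes, MPB_par_143 in 3 (Tnnc2, Tnni2 and Mylpf) and MIX_par_339 in 1 (Pvalb).

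The genes that both fibre types use followed the same rats with a few exceptions. Of the 16 measured, 11 had all 4 rats above every other rat in the deposited values, and against the other 20 Zymo rats the median gene was higher by 3.45, 3.01, 2.36 and 2.07 in DEP_null_27, DEP_par_41, OIL_null_431 and TCS_par_243.
Ckm encodes the creatine kinase that regenerates ATP in the fibre. Ckm was 8.68, 6.94, 6.95, 7.21 and 11.54 in OIL_null, 6.70, 12.64, 7.32, 7.25 and 6.89 in DEP_null, 7.17, 6.85, 6.78, 6.96 and 6.99 in MPB_null, 6.93, 6.55, 6.97, 6.86 and 6.89 in TCS_null, and 7.61, 6.95, 6.98, 7.21 and 6.90 in MIX_null. Ckm was 6.95, 6.90, 6.88, 6.79 and 6.89 in OIL_par, 6.96, 7.10, 7.51, 7.26 and 12.10 in DEP_par, 9.84, 7.05, 6.67, 7.33 and 8.29 in MPB_par, 6.93, 8.92, 6.78, 6.95 and 11.71 in TCS_par, and 6.67, 7.68, 6.87, 7.34 and 7.10 in MIX_par. Below the 4 rats (11.54 to 12.64), MPB_par_137, TCS_par_238, OIL_null_427 and MPB_par_143 stood at 9.84, 8.92, 8.68 and 8.29, and the median of the 46 other rats was 6.96.
Acta1 encodes the actin of the skeletal thin filament. Acta1 was 9.22, 8.25, 8.07, 9.47 and 11.94 in OIL_null, 7.48, 12.98, 8.57, 8.75 and 7.97 in DEP_null, 8.05, 8.08, 8.15, 8.60 and 8.71 in MPB_null, 8.47, 8.34, 8.13, 8.63 and 8.95 in TCS_null, and 8.49, 7.90, 8.63, 8.71 and 8.63 in MIX_null. Acta1 was 8.55, 7.95, 8.04, 8.48 and 8.81 in OIL_par, 7.65, 8.69, 9.13, 9.03 and 12.34 in DEP_par, 9.98, 8.07, 7.59, 8.74 and 9.79 in MPB_par, 8.39, 9.03, 7.98, 10.09 and 12.09 in TCS_par, and 8.49, 8.22, 7.81, 9.63 and 8.72 in MIX_par. The 4 rats lay between 11.94 and 12.98, with a gap of 1.85 to TCS_par_240.
Des encodes desmin, the intermediate filament of skeletal, cardiac and smooth muscle alike. Des was 9.70, 9.47, 9.64, 8.44 and 9.21 in OIL_null, 9.77, 10.48, 8.99, 8.21 and 8.41 in DEP_null, 9.61, 9.93, 10.14, 8.80 and 8.88 in MPB_null, 9.97, 9.54, 9.83, 8.93 and 8.94 in TCS_null, and 9.43, 9.31, 9.54, 8.47 and 9.05 in MIX_null. Des was 9.70, 9.59, 9.95, 9.16 and 8.59 in OIL_par, 9.84, 8.72, 9.32, 8.77 and 9.82 in DEP_par, 9.91, 9.95, 9.70, 8.64 and 9.15 in MPB_par, 9.43, 9.57, 9.92, 8.34 and 9.55 in TCS_par, and 9.27, 9.73, 9.62, 8.40 and 8.58 in MIX_par. Only DEP_null_27 stood above every other rat, and in the other rats the Promega values (9.27 to 10.14) were all above the median Zymo value, which is the opposite of most members.
Among the energy genes, Cox6a2 (the muscle subunit of cytochrome oxidase) and Mb (myoglobin) had gaps of 1.67 and 1.47. Ampd1, the muscle AMP deaminase, had a gap of 0.95. Pygm, muscle glycogen phosphorylase, did not separate the 4 rats: MPB_par_137 at 8.97 was above TCS_par_243 at 8.57. Ttn and Ryr1, the giant spring titin and the calcium release channel, also had MPB_par_137 above at least 1 of the 4 rats, with 8.28 for Ttn against 7.15 in TCS_par_243. Smpx, Klhl41, Csrp3 and Myot, small proteins of the sarcomere and its Z-disc, had gaps of 2.37, 1.98, 1.51 and 1.33, and for Smpx, Csrp3 and Myot DEP_par_41 was the highest rat, at 9.60, 10.01 and 8.89. Ankrd2, a stretch-responsive protein, ranged only from 6.41 to 7.35 over all rats, and its highest value was in MIX_par_339.

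Slow fibre genes were less marked in the same rats. Against the other 20 Zymo rats, the median of the 7 measured slow genes was higher by 0.47 in DEP_null_27, 0.18 in DEP_par_41, 0.79 in OIL_null_431 and 0.88 in TCS_par_243. In the deposited values all 4 rats stood above every other rat in 2 of the 7 genes, Tnnt1 and Tnni1. After removal of the kit difference this held in 1 gene, Tnni1.
Tnnt1, the slow troponin T, stood at 10.69, 8.57, 10.22 and 9.74 in DEP_null_27, DEP_par_41, OIL_null_431 and TCS_par_243. Other rats reached 8.01 (MPB_par_143), 7.97 (DEP_null_30) and 7.91 (OIL_null_430), and in DEP_null_30 and OIL_null_430 Ckm was only 7.25 and 7.21.
Tnni1 encodes the slow troponin I. Tnni1 was 6.05, 5.90, 6.00, 6.52 and 7.05 in OIL_null, 5.98, 6.82, 6.49, 6.63 and 6.12 in DEP_null, 5.86, 5.82, 5.84, 6.42 and 6.30 in MPB_null, 5.65, 5.88, 6.08, 6.20 and 6.42 in TCS_null, and 5.95, 5.89, 5.94, 6.22 and 5.94 in MIX_null. Tnni1 was 6.10, 6.03, 5.92, 6.41 and 6.42 in OIL_par, 6.19, 6.19, 6.61, 6.45 and 6.76 in DEP_par, 6.14, 6.14, 6.16, 6.34 and 6.20 in MPB_par, 5.79, 5.84, 6.00, 6.09 and 7.14 in TCS_par, and 5.86, 5.83, 6.02, 6.64 and 6.38 in MIX_par. The 4 rats lay between 6.76 and 7.14, only 0.12 above the next rat.
Tnnc1 encodes the troponin C of slow and cardiac muscle. Tnnc1 was 6.26, 6.34, 5.95, 7.82 and 8.49 in OIL_null, 6.12, 7.80, 7.56, 8.32 and 7.83 in DEP_null, 6.61, 6.11, 6.06, 7.91 and 7.63 in MPB_null, 6.02, 6.43, 6.13, 7.18 and 7.77 in TCS_null, and 6.29, 6.34, 6.27, 7.96 and 7.49 in MIX_null. Tnnc1 was 6.32, 6.17, 6.12, 7.23 and 7.94 in OIL_par, 6.40, 7.32, 7.40, 7.17 and 7.51 in DEP_par, 6.20, 6.23, 6.24, 7.78 and 7.61 in MPB_par, 6.28, 6.00, 6.11, 7.56 and 8.58 in TCS_par, and 6.40, 6.45, 6.01, 7.83 and 7.78 in MIX_par. The 2 kits did not overlap (5.95 to 6.61 with Promega, 7.17 to 8.58 with Zymo), and DEP_par_41 at 7.51 was below the median of the other 20 Zymo rats (7.70).
Myh7 encodes the slow myosin heavy chain, the defining gene of slow fibres. Myh7 was 5.56, 5.80, 5.24, 5.70 and 6.16 in OIL_null, 5.25, 6.03, 5.51, 5.72 and 5.70 in DEP_null, 5.70, 5.56, 5.48, 5.25 and 5.14 in MPB_null, 5.45, 5.61, 5.24, 5.74 and 5.47 in TCS_null, and 5.72, 5.25, 5.36, 5.75 and 5.32 in MIX_null. Myh7 was 5.24, 5.65, 5.58, 5.62 and 5.71 in OIL_par, 5.39, 5.44, 5.50, 5.65 and 5.62 in DEP_par, 5.67, 5.21, 5.26, 5.65 and 5.74 in MPB_par, 5.44, 5.53, 5.43, 5.14 and 5.21 in TCS_par, and 5.49, 5.46, 5.09, 5.59 and 5.50 in MIX_par. No rat went above 6.16, which is below the 30th percentile of all gene values (6.32), and TCS_par_243 at 5.21 was among the lowest.
Myl3 (the slow light chain) reached 7.01 in TCS_par_243 and Myoz2 (a slow Z-disc protein) 6.78 in OIL_null_431, while both were at most 6.19 outside the 4 rats. Mybpc1, the slow myosin-binding protein C, stood at 8.32, 8.30, 7.65 and 7.42 in the 4 rats and at up to 7.92 in the others (DEP_par_46).

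**Figure D2:**
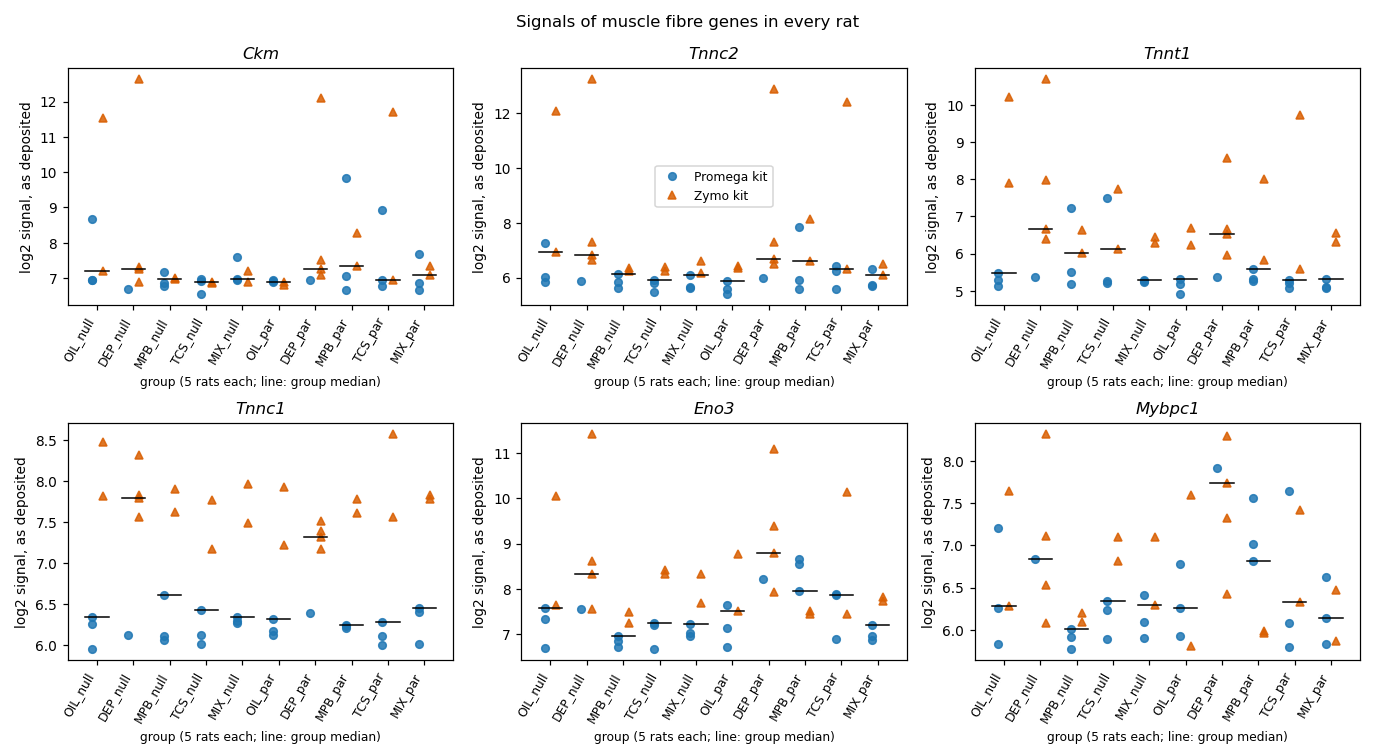
Deposited log2 signals of Ckm, Tnnc2, Tnnt1, Tnnc1, Eno3 and Mybpc1 in every rat of the 10 groups, with circles for the Promega kit, triangles for the Zymo kit and lines for group medians. Ckm and Tnnc2 show 4 rats far above the rest in 4 groups, Tnnc1 splits by kit, and Eno3 and Mybpc1 show a graded spread with DEP_par high.

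A fast and a slow score were formed for each rat as the mean difference from the median rat over the 10 fast and the 7 slow genes. With the kit difference removed, the fast scores of DEP_null_27, DEP_par_41, OIL_null_431 and TCS_par_243 were 4.43, 3.91, 3.30 and 3.18, and their slow scores 1.07, 0.54, 1.11 and 0.98. The order of the 4 rats thus differed between the scores, with DEP_par_41 second of 4 by the fast and last by the slow score. In MPB_par_137, OIL_null_427 and TCS_par_238, with fast scores of 1.63, 0.92 and 0.87, the slow scores were 0.23, 0.06 and -0.08. The highest slow score outside the 4 rats was 0.30, in DEP_null_30, whose fast score was -0.16. In the deposited values the slow and fast scores of this rat were 0.73 and 0.38, so the sign of its fast score depends on the kit removal. The 10 highest rats by the fast score and the 10 highest by the slow score shared 5 rats, and 7 in the deposited values.

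**Figure D3:**
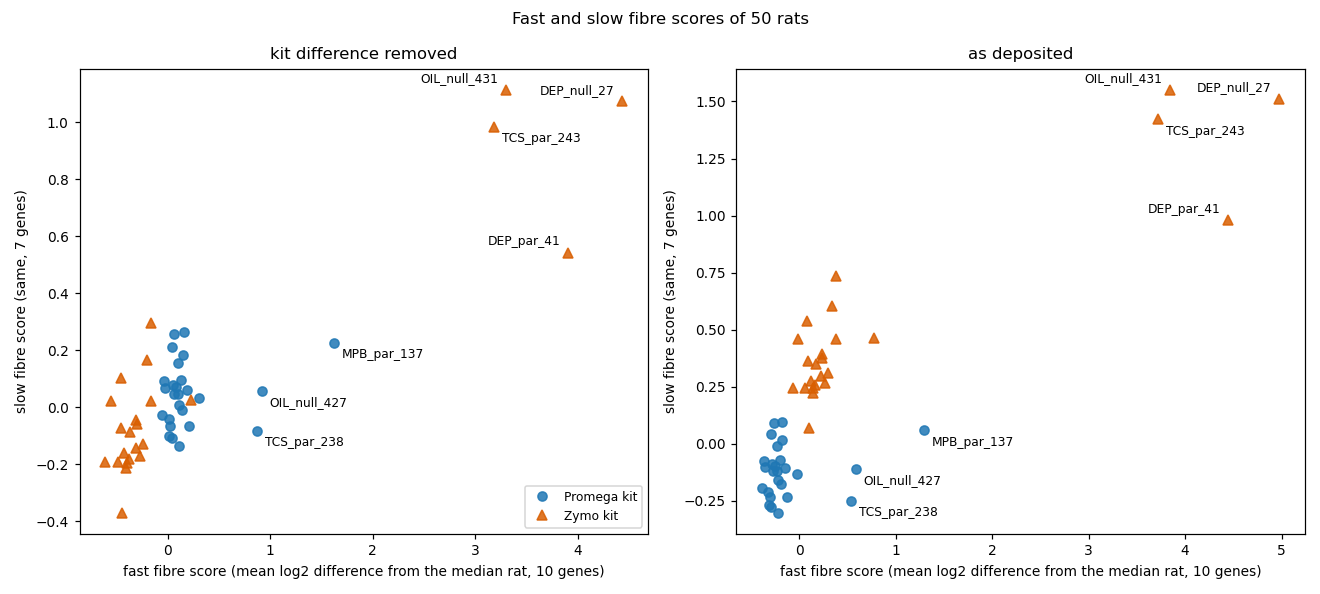
Slow fibre score (7 genes) against fast fibre score (10 genes) of 50 rats, as the mean log2 difference from the median rat, after removal of the kit difference (left) and as deposited (right). In both panels 4 Zymo rats lie far to the right and above, with fast scores of 3.18 to 4.43 on the left. In the left panel 3 Promega rats, led by MPB_par_137 at 1.63, come next, with slow scores from -0.08 to 0.23. In the right panel the Zymo rat MPB_par_143 (fast score 0.77) lies beyond the Promega rats OIL_null_427 (0.59) and TCS_par_238 (0.54).

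Members also differed in how far they shared their 10 highest rats with each other, taken after removal of the fitted kit difference. Mylpf, Ckm and Myl1 shared the most, a mean of 6.59, 6.53 and 6.53 of 10 rats with the other 32 members, while Myh7 (3.50) and Tnnc1 (3.13) shared the fewest. Ckm and Myl1 had the same 10 rats by this measure, but not in the deposited values. Of all genes outside the 40, the 10 whose highest rats were shared most with the members were Myom2 (6.58 of 10 rats), Pgam2 (6.52), Nrap, Trdn, Hjv, Mylk2, Xirp2, Rpl3l, Tmod4 and 2310002L09Rikl (6.03). Myom2 is a protein of the sarcomere's M-band, Pgam2 is the muscle phosphoglycerate mutase and Trdn is triadin, a partner of the ryanodine receptor. These counts are descriptions over the same 50 arrays.

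Some other muscle genes, listed apart from the 40, were high in the same rats and some were not. Of 28 measured genes, 13 (Pgam2, Tmod4, Ldb3 and Trdn among them) had all 4 rats above every other rat after removal of the kit difference, and the list's mean was 7.86, 7.57, 7.36 and 7.21 in DEP_null_27, DEP_par_41, OIL_null_431 and TCS_par_243 against 6.26 to 6.80 in the other rats. In the deposited values 6 of the 28, Fbxo32, Tpm3, Synpo2l, Sgca, Tmem38a and Myom2, had none of the 4 rats above all others. Fbxo32, a ubiquitin ligase of muscle atrophy, stood at 10.89, 9.18, 9.41 and 10.67 in the 4 rats, below the median of the others (11.11). Pgam2 stood at 11.63, 11.11, 10.45 and 10.28, and at most at 8.67 in the others. Myf6, the myogenic factor of mature fibres, stood at 8.53, 8.47, 8.28 and 7.48 against at most 6.75, whereas Myog, which acts in early differentiation, was between 6.01 and 6.43 in the 4 rats and reached 6.55 in others. Of 6 developmental and cardiac muscle genes none had all 4 rats above the others, and Tnnt2, for example, stood at 8.37 to 8.81 in the 4 rats and at up to 8.97 elsewhere.
Lists of other cells overlapped between these rats and the others, except that of brown fat. The mean over 4 smooth muscle genes was 11.31, 9.65, 10.38 and 11.34 in the 4 rats, and 9.77 to 11.72 in the others. DEP_par_41 was thus below all other rats. The mean over 5 brown fat genes was 7.21 to 7.49 in the 4 rats and at most 7.09 in the others. Of these genes, Ucp1, the defining gene, stayed between 4.68 and 5.37 in all rats, while Cox8b, a subunit of cytochrome oxidase in heart, muscle and brown fat, stood at 8.97 to 10.33 in the 4 rats and at most at 7.70 in others. Over the 4 skin keratinocyte genes the 4 rats had means of 6.50 to 6.71 and the others 6.07 to 6.64. The mean over 5 tendon genes was 7.27 to 7.68 in the 4 rats and 6.69 to 7.72 in the others. Of these genes, Scx stood at 7.78 to 8.46 in the 4 rats and at up to 8.06 in others. Of the 4 rats, 2 were above all others in Scx, 1 in Tnmd and 0 in Mkx, Thbs4 and Fmod. The lymphocyte mean was high in DEP_par_41 (11.4) and not in the other 3 rats (8.01 to 8.42).

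The study asked what each chemical changed in the gland, and for this each treatment was set against olive oil within a parity, with the kit as a term, across all 18166 genes. A gene was called at an adjusted p under 0.25 (limma, Benjamini-Hochberg) and a fold change of at least 1.5. The 4 comparisons of a parity share the same 5 control rats.
In parous rats given DEP, 2 of the 33 members were called, both higher than in controls, and none lower. Over all genes 5.26% were called in either direction and 1.18% were called higher, and the 2 members are 2 of 33. Both called genes are expressed in muscle, Eno3 as the muscle enolase of glycolysis and Mybpc1 as the slow myosin-binding protein.
Mybpc1 was 6.26, 5.92, 6.78, 7.59 and 5.81 in OIL_par, 7.92, 7.32, 6.43, 7.74 and 8.30 in DEP_par, 6.81, 7.56, 7.02, 5.97 and 5.99 in MPB_par, 5.80, 6.08, 7.64, 6.32 and 7.42 in TCS_par, and 5.83, 6.14, 6.62, 5.87 and 6.47 in MIX_par. Mybpc1 was 6.26, 5.84, 7.21, 6.28 and 7.65 in OIL_null, 6.84, 8.32, 6.53, 6.09 and 7.11 in DEP_null, 6.01, 5.77, 5.91, 6.10 and 6.20 in MPB_null, 6.35, 6.23, 5.89, 7.10 and 6.82 in TCS_null, and 6.09, 6.41, 5.90, 6.30 and 7.10 in MIX_null. Mybpc1 was higher in DEP_par than in OIL_par by 1.00 (SE 0.39, adjusted p = 0.139 by limma), with overlapping groups: OIL_par_444 at 7.59 was above 2 of the 5 DEP_par rats.
Eno3 was 7.13, 6.73, 7.64, 8.77 and 7.51 in OIL_par, 8.22, 8.80, 7.93, 9.39 and 11.08 in DEP_par, 8.66, 8.56, 7.96, 7.44 and 7.52 in MPB_par, 6.88, 7.86, 7.89, 7.44 and 10.14 in TCS_par, and 6.96, 6.88, 7.19, 7.81 and 7.72 in MIX_par. Eno3 was 7.59, 6.69, 7.34, 7.65 and 10.06 in OIL_null, 7.56, 11.42, 8.33, 7.56 and 8.62 in DEP_null, 6.96, 6.84, 6.72, 7.24 and 7.49 in MPB_null, 7.25, 7.20, 6.67, 8.42 and 8.32 in TCS_null, and 6.97, 7.22, 7.03, 7.68 and 8.33 in MIX_null. Eno3 was higher in DEP_par than in OIL_par by 1.18 (SE 0.53, adjusted p = 0.203 by limma), and OIL_par_444 at 8.77 again lay within the DEP_par range. Neb, nebulin of the thin filament, came next by p with a difference of 0.89 (SE 0.46, adjusted p = 0.274) and was not called.
Without the 4 rats of highest signal both genes were still called, at 0.88 for Mybpc1 and 0.84 for Eno3 (adjusted p = 0.164 and 0.129 by limma), and the median over the 33 members went from 0.58 to 0.12. With 1 rat left out in turn, the number of members called ran from 0 to 4, and neither gene was called without DEP_par_41, DEP_par_46, OIL_par_441 or OIL_par_446. Over these fits the difference of Mybpc1 ran from 0.78 to 1.30, and that of Eno3 was lowest without DEP_par_41, at 0.74. Within the kits the difference of Mybpc1 was 1.59 among Promega rats and 0.74 among Zymo rats, and that of Eno3 was 1.06 and 1.16. Neither gene was called among Zymo rats alone (adjusted p = 0.861 and 0.863), and the Promega value rests on 1 DEP_par rat.
Lymphocyte markers are given beside these genes. The mean of 5 lymphocyte markers (Cd3e, Cd3g, Ms4a1, Cd79a and Ptprc) was 11.44, 11.59, 7.91, 11.71 and 11.42 in DEP_par_46, DEP_par_37, DEP_par_38, DEP_par_40 and DEP_par_41. It was 9.41, 7.29, 10.41, 11.38 and 8.50 in OIL_par_440, OIL_par_441, OIL_par_442, OIL_par_444 and OIL_par_446, so that the groups overlapped. All 5 markers were higher in DEP_par, Cd3e by 1.46 (SE 0.84), and none was called. DEP_par_38, with the lowest marker mean of its group, also had the lowest Mybpc1 (6.43) and Eno3 (7.93) of its group. With the lymphocyte mean as a further term, Mybpc1 differed by 0.61 (adjusted p = 0.336) and Eno3 by 0.97 (adjusted p = 0.383), and neither was called. After removal of the kit difference, 6 of the 10 rats highest in Mybpc1 were also among the 10 highest in Cd3e. The same held for 5 of those highest in Eno3, against 1 for Ckm. Over the 33 members this number ran from 0 (Myoz2 and Myl3) to 6 (Mybpc1). It was 5 for Cox6a2 and 4 for Neb and Ryr1, which were not called, so it was not particular to the 2 called genes. The 7 epithelial markers were lower in DEP_par, and 6 of them were called, Epcam by -1.66 and Krt8 by -1.41. The part of these cells in the members' difference was not tested beyond the added term.

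In parous rats given MPB, TCS or MIX no member was called, nor did any have an unadjusted p under 0.05 in these comparisons (limma), against 423, 602 and 708 of all 18166 genes. The background was 0.0055% of genes called for MPB, 0% for TCS and 0% for MIX. The median over members was 0.26 for MPB, 0.51 for TCS and 0.01 for MIX, against medians over all genes between 0.00 and 0.01. Ryr1 had the smallest p of the members for MPB (0.25, SE 0.16), Acta1 for TCS (1.15, SE 0.64) and Des for MIX (-0.28, SE 0.25). Without TCS_par_243 and the other 3 rats, the TCS median was 0.14. The MPB comparison holds none of the 4 rats, and both of its groups held 3 Promega and 2 Zymo rats, so that the kit term cancels. Its differences are therefore the same in the fit without the 4 rats. In that fit 9 members had an unadjusted p under 0.05 (limma), and 0 were called, against 0.0055% of all genes called. The number of all genes under that unadjusted p was not taken in that fit, so the 9 members have no background share. With 1 rat left out in turn, the MPB median ran from 0.05 (without MPB_par_137) to 0.43 (without MPB_par_142), and the TCS median was lowest without TCS_par_243, at 0.17.
In nulliparous rats no member was called either (limma), with a background of 1.84% of genes for DEP, 0% for MPB, 0% for TCS and 0% for MIX. At an unadjusted p under 0.05 there were 0 members for DEP, 1 for MPB, 2 for TCS and 3 for MIX, against 2415, 505, 1002 and 363 of all 18166 genes. The medians over members were -0.04 for DEP, -0.69 for MPB, -0.58 for TCS and -0.68 for MIX, with 2, 1 and 0 of the 33 members above 0 in the last 3. These comparisons share the OIL_null rats, of which OIL_null_431 was among the 4 rats and OIL_null_427 came behind them with a member median of 0.39. With 1 rat left out in turn, the DEP median ran from -0.75 (without DEP_null_27) to 0.50 (without OIL_null_431). Without OIL_null_431 the medians were -0.21 for MPB, -0.23 for TCS and -0.19 for MIX. Without all 4 rats the medians for DEP, MPB, TCS and MIX were 0.00038, -0.16, -0.19 and -0.14. The smallest p values belonged to genes with small differences: Myoz2 for TCS (-0.40, SE 0.14, adjusted p = 0.881 by limma), Tnni1 for MIX (-0.31, SE 0.14), Ryr1 for MPB (-0.35, SE 0.16) and Myoz2 for DEP (-0.24, SE 0.14).

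**Figure D4:**
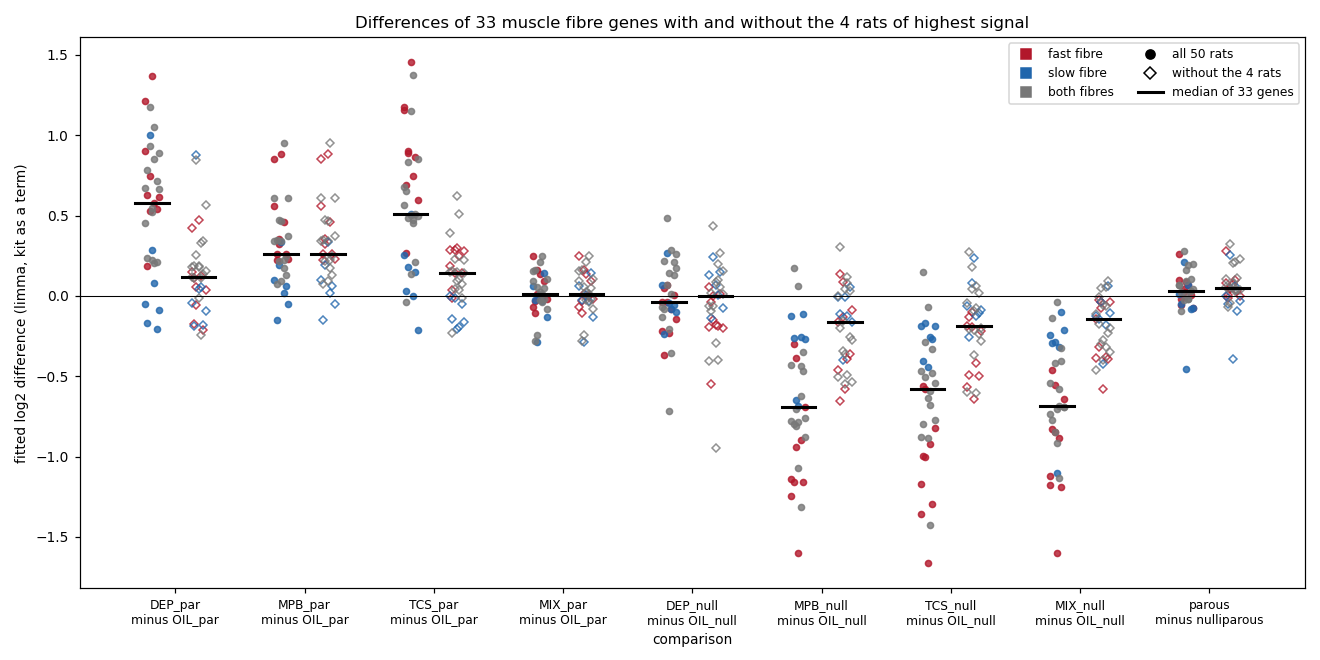
Fitted log2 differences of 33 muscle fibre genes in 9 comparisons, with the kit as a term, from all 50 rats (filled circles) and without the 4 rats of highest signal (open diamonds). Lines are medians over the 33 genes, which lie at -0.69, -0.58 and -0.68 for MPB, TCS and MIX in nulliparous rats and move to -0.16, -0.19 and -0.14 without the 4 rats.

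Parity was compared as the mean within-treatment difference over the 5 treatments. None of the 33 members was called, and 0 had an unadjusted p under 0.05 (limma), against 3638 of 18166 genes, while 0.528% of all genes were called. The median over members was 0.03. Ankrd2 (0.09, SE 0.05), Tnnt1 (-0.45, SE 0.30) and Ryr1 (0.10, SE 0.07) had the smallest p values. Without TCS_par_243 there was 1 call, Tnnt1, lower in parous rats.
Whether a treatment difference changed with parity was tested as an interaction. No member was called in any of the 4 interactions (limma), and the background was 0% of genes for DEP, 0% for MPB, 0% for TCS and 0% for MIX. At an unadjusted p under 0.05 there were 0, 2, 9 and 0 members, against 552, 398, 754 and 453 of all 18166 genes. The median over members was 0.66 for DEP, 0.92 for MPB, 1.14 for TCS and 0.63 for MIX. For TCS, Ckm differed by 2.80 (SE 1.23) and Acta1 by 2.04 (SE 0.91), both with an adjusted p = 0.975, and the TCS_par and OIL_null groups, with TCS_par_243 and OIL_null_431, both enter this contrast with a plus sign. Without the 4 rats the medians were 0.09 for DEP, 0.48 for MPB, 0.31 for TCS and 0.20 for MIX, and 1, 15, 4 and 1 members had an unadjusted p under 0.05. No count over all genes at that p was taken in this fit, so these counts of members have no background share. With 1 rat left out in turn, the DEP median ran from 0.03 (without DEP_par_41) to 1.31 (without DEP_null_27). Without OIL_null_431 alone it was lowest for the other interactions, at 0.51 for MPB, 0.73 for TCS and 0.24 for MIX. In the fit without the 4 rats, MPB_par_137 and OIL_null_427 remained in the MPB interaction.

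The kit itself was the largest source of calls among the members. Of the 33, 17 were called between the kits, 16 higher and 1 lower with Zymo, against a background of 39.3% of all genes (17.6% higher, 21.7% lower). The shares called in either direction are 17 of 33 members and 7143 of 18166 genes. The 16 genes higher with Zymo were 7 fast genes (Myl1, Tnnt3, Tnni2, Tnnc2, Pvalb, Mylpf and Myoz1), 2 slow genes (Tnnt1 and Tnnc1) and 7 shared genes (Acta1, Ckm, Eno3, Cox6a2, Mb, Klhl41 and Csrp3), with fitted differences from 0.61 to 1.66. Since the 4 rats were all Zymo rats, each value was computed with and without them.
Tnnc1 had the smallest p: it was 6.24 in the median Promega rat and 7.78 in the median Zymo rat, a fitted difference of 1.53 (SE 0.08, adjusted p = 2.54e-21 by limma), and 1.43 without the 4 rats. Tnnt1 was higher with Zymo by 1.66 (SE 0.31), and by 1.18 without them. Des was the only member called lower, by -0.84 (SE 0.12, adjusted p = 1.34e-08 by limma), and by -0.98 without them. Tnni1 had a difference of 0.47 (SE 0.07, adjusted p = 2.49e-08 by limma), under the fold minimum.
Of the smooth muscle genes beside Des, Mylk and Myh11 were also lower with Zymo (-1.80 and -1.41), and Tagln and Actg2 higher (0.72 and 0.88), all 4 called. For Ckm the fitted difference of 0.63 (SE 0.41, adjusted p = 0.158 by limma), a call, became -0.01 (SE 0.18) without the 4 rats. In all, 9 members were called without them: Tnni2, Tnnc2, Pvalb, Mylpf, Tnnt1, Tnnc1, Acta1 and Cox6a2 higher and Des lower. In that fit 39.2% of all genes were called, a larger share than 9 of 33, whereas 17 of 33 with all rats is a larger share than the background. The median over members went from 0.55 to 0.16, and after removal of the kit difference fitted on all rats every one of the other 20 Zymo rats had a member median between -0.37 and -0.07.

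**Figure D5:**
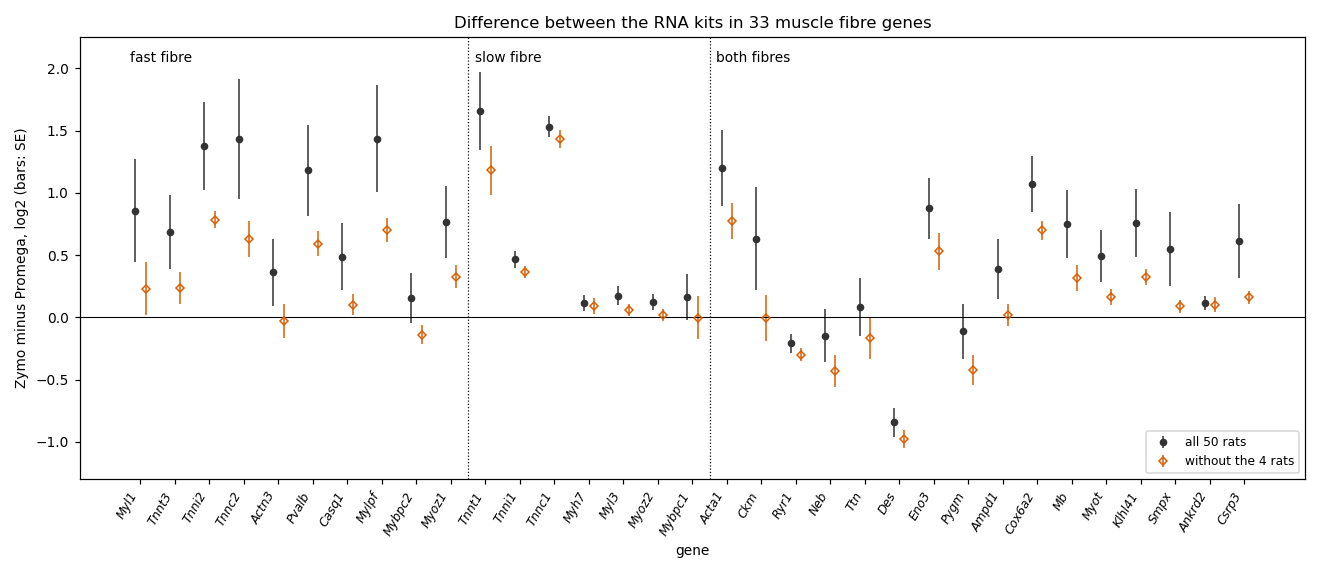
Fitted difference between Zymo and Promega rats, with bars of 1 SE, for 33 muscle fibre genes by fibre type, from all 50 rats (circles) and without the 4 rats of highest signal (diamonds). Tnnc1 and Tnnt1 stay high and Des stays low in both, while Ckm goes from 0.63 to -0.01.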

How the data were processed

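Gland RNA of each of 50 rats was measured on 1 Affymetrix array per rat. The deposited values are log2 signals that the authors made with RMA in Affymetrix Expression Console, with R 3.0.2 named in the submitters' processing notes. RMA subtracts background, equalises the arrays' distributions and summarises probes, so that low signals are compressed. The methods name ComBat for the RNA kits, but the deposited values still differ by kit, so the kit was a term in each fit. Array values carry no read depth, and the 5 rats per group limit the precision.

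Of 36685 probesets, 18511 had 1 gene symbol, 575 several and 17599 none. The first kind gave 18166 genes, of which 291 had more than 1 probeset and took that with the highest mean. Of the 18511 probesets, 18394 matched a RefSeq gene. The 10 groups and the kit were fitted across all genes with limma 3.58.1 in R 4.3.3 (lmFit, eBayes, Benjamini-Hochberg over 18166 genes), after tests on simulated data. Members were called where the adjusted p was below 0.25 and the fold reached 1.5. For levels by rat the fitted kit difference was removed and each gene's median rat subtracted, in Python 3.11.15 (pandas 2.3.3, numpy 2.4.6, matplotlib 3.10.9).

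The members, the lists and the tests were chosen with earlier results of these data known. Values in every rat are given for Acta1, Ckm, Tnni2, Tnnc2, Tnni1, Tnnc1, Myh7, Des and the members called for a treatment. Up to 3 members of smallest p are named per comparison, and other genes outside this rule were named after their values were seen. Alternatives were other kit handling (no term, each kit alone, ComBat's adjustment coded anew), the groups compared alone, filters on intensity and variance, all probesets, repeated quantile normalization, a trended robust fit, array weights, other thresholds and each rat left out. The fits without the 4 rats and with a lymphocyte or other muscle term were added after seeing the data.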

Additional observations from a re-analysis of the deposited data

Results flagged for a closer look

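In each group of 5 rats, the gap between the highest or lowest rat and its neighbour was divided by the range of the group, for 10 members and both scores with the kit difference removed. Of 120 such groups 20 had a ratio above 0.71, Dixon's critical value. Chance alone gives about 1 in 20 for independent groups, but the members share their rats, so this rate is no yardstick for the count. Of the 20, 17 lay in the 4 rats of highest member median, which were picked by these same members, so these values describe the rats and are no test. DEP_null_27 was far above its group in Acta1 (12.36), Ckm (12.31), Tnni2 (11.02), Tnnc2 (12.51), Eno3 (10.96) and the fast score (4.43). DEP_par_41 was far above in Acta1 (11.71), Ckm (11.77), Tnni2 (10.50), Tnnc2 (12.14) and the fast score (3.91). TCS_par_243 was so in Tnni2 (9.71), Tnnc2 (11.65) and Tnnc1 (7.78), and OIL_null_431 in Tnni2 (10.02), Tnni1 (6.80) and the slow score (1.11). In the TCS_par and OIL_null groups a further rat had raised Ckm, and Ckm did not pass the critical value there. The other 3 were small in size: MPB_null_130 was high in Tnni1 (6.18, group median 6.07), MPB_par_143 low in Tnnc1 (6.81, group median 6.97) and MIX_par_340 low in Myh7 (5.14, group median 5.52).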

How the results depend on the processing

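The number of members called for DEP in parous rats, 2 in all 50 rats, was 1 with no kit term (Mybpc1), 0 among Zymo rats alone, 0 with only the groups compared, 4 with array weights (Mybpc1, Eno3, Neb and Cox6a2), 0 at an adjusted p under 0.05 and 0 with the lymphocyte term. With each rat left out in turn it ran from 0 to 4, with 4 without DEP_par_38, 1 without DEP_par_40 or OIL_par_440 and 0 without DEP_par_41, DEP_par_46, OIL_par_441 or OIL_par_446. Between the kits 17 members were called, against 10 with both filters (12 members tested), 28 with no fold minimum, 9 without the 4 rats and 10 with the other muscle term, and 14 to 18 with 1 rat left out. For these alternatives the share of all genes called is not set beside the counts, except 39.2% in the kit fit without the 4 rats. The counts therefore describe the members alone. The Ckm difference between kits changed sign to -0.00786 without the 4 rats. The parity count ran from 0 to 1 with 1 rat left out (Tnnt1, without TCS_par_243), and the DEP count in nulliparous rats was 1 with the other muscle term (Acta1, lower). Except where a construction shows it (fewer genes, fewer rats or another threshold), the cause was not tested. The TCS median in nulliparous rats was -1.44 among Zymo rats alone, and the TCS interaction median was 2.42 there, 0.31 without the 4 rats and 0.02 with the other muscle term. Of the other alternatives to counts of members, 207 of 218 stayed within 1.5 times, as did 252 of 260 with 1 rat left out. A count of 0 that stayed at 0 was taken as unchanged. In all 50 rats every comparison except DEP in parous rats and the kits had a count of 0. These totals therefore say little about the DEP count in parous rats, which moved in the fits named above. The fits without the 4 rats and with added list terms were chosen after seeing the data. No paired analysis was possible because the rat numbers differ between all groups. The DEP groups hold 1 Promega rat each, which limits what the kit term can separate.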
